A study of Homo sapiens with 4 samples.

Results

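The septin mRNAs SEPTIN2, SEPTIN6, SEPTIN7, SEPTIN8, SEPTIN9, SEPTIN10 and SEPTIN11 were examined for RNA recovered with YTHDF2 in HCCLM3, a human liver cancer line of high metastatic potential. The 7 genes were chosen by name, with earlier results of this peak list known. Their peaks were those given to the gene in the exon or intron annotation, or otherwise to the gene whose span held the summit. In all, 20 of 14858 peaks were septin peaks, and 5 of the 7 genes had one. SEPTIN9 held 13 of them (65.0%), SEPTIN7 3, SEPTIN2 2, and SEPTIN10 and SEPTIN11 1 each, while SEPTIN6 and SEPTIN8 had none. Since membership and the counts rest on the same list, all values below are descriptions with no test.

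Septins are GTP-binding proteins that join into palindromic rods and then into filaments, rings and cages beneath the membrane and along actin and microtubules. They are best known as scaffolds and diffusion barriers at the cleavage furrow and midbody of dividing cells. A rod takes members of the SEPTIN2, SEPTIN6 and SEPTIN7 groups, with or without SEPTIN9, and SEPTIN6, SEPTIN8, SEPTIN10 and SEPTIN11 belong to one such group and can stand in for each other. YTHDF2 is a cytosolic protein that reads N6-methyladenosine (m6A) in mRNA and brings deadenylases to it.

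The series has 2 libraries of YTHDF2 RNA immunoprecipitation (RIP) and 2 of input, all of wild-type HCCLM3 cells with no treatment named. No control pulldown was analysed here, and a peak thus stands for more RNA in the RIP than in the peak caller's background, not for contact with the protein. How that background was drawn from the input is not stated. The deposited values are 1 list of peaks without values per library, so no replicate spread or library depth can be given. The fold of a peak is the authors' value, RIP over background at its summit, and the q is that of the peak caller. A peak passes here at a q of 0.01 or less, a −log10 q of at least 2. RIP fragments and background at a summit were recovered from the fold and the p, and their exact Poisson 95% intervals cover counting error only. Of 9 hepatocyte and hepatoma markers, KRT8 and KRT18 had passing peaks and APOB a peak that did not pass. ALB, APOA1, TTR, SERPINA1, AFP and GPC3 had no peak, which in a peak list gives no level. Among markers of other cell types, PTPRC and COL1A1 had no peak, CD68, PECAM1 and LUM had peaks that did not pass, and HBB had a passing peak of 8 fragments.

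SEPTIN9 has 10 annotated start windows in the RefSeq promoter table (GRCh38.p14), and those upstream of the starts nearest to its most upstream peak and to its peak of highest fold are shown because these peaks began within 1 kb downstream of them. Each line gives the 250 bases before the start, 5′ to 3′ on the plus strand, with each GGAC, the core of the favoured m6A consensus, in capitals.
SEPTIN9 start at 77319518, window chr17:77319268-77319517: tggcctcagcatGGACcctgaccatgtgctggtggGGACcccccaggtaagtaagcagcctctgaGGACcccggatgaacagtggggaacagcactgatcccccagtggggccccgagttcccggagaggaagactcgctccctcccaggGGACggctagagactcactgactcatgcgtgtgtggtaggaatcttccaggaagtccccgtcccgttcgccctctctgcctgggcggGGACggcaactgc
SEPTIN9 start at 77373337, window chr17:77373087-77373336: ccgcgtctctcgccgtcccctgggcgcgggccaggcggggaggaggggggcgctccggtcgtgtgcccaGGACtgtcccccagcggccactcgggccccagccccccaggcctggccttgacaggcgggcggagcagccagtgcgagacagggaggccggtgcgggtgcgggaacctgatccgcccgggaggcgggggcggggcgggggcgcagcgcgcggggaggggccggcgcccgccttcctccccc
The first window held GGAC 5 times on the plus strand and 2 times on the minus strand, with 64.0% G and C. The second held it 1 time on the plus and 2 times on the minus strand, with 81.2% G and C. Over all 35116 upstream windows of this length, 59.0% had a GGAC on the sense strand, 82.0% had one on either strand, and the median G and C content was 58.0%. The GC box GGGCGG occurred 3 times on the plus and 1 time on the minus strand of the second window, and 1 time on the plus strand of the first. It was found on the sense strand of 28.1% of all windows and on either strand of 42.6%. The motifs were counted separately, so an overlap would count for both. These are letters in DNA before a start, not marked sites, and the bases under the peaks themselves were not used here. None of the 21 start windows of the 7 genes overlapped a peak.

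Of the 20 septin peaks, 5 passed, against 37.3% of all peaks in the list. They were 3 peaks of SEPTIN9 and 1 each of SEPTIN7 and SEPTIN11. Of the 5 septin genes with a peak, 3 had a passing one, against 50.2% of all genes with a peak. The highest fold among the passing peaks was 4.80 in SEPTIN9, followed by 3.13 in SEPTIN7, 2.03 in SEPTIN9, 1.93 in SEPTIN11 and 1.33 in SEPTIN9. The peak just inside the limit was the 1.33-fold peak of SEPTIN9 (−log10 q of 2.21), and the one just outside was an intron peak of SEPTIN7 (−log10 q of 1.92). The median fold of septin peaks was 1.86, against 2.41 over the list, and 8 of the 20 had a −log10 q of 0, as did 23.2% of all peaks.

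SEPTIN9, the septin that caps or centres the longer rods and crosslinks actin and microtubules, spans 219 kb of chromosome 17 (77281499 to 77500596, hg38, plus strand). Its 13 peaks ran over 180 kb of the gene, with gaps between neighbouring summits of 0.494 to 31.2 kb. Among 7877 genes with a peak, 11 had 13 or more peaks, SEPTIN9 included. Of 181 genes of 200 to 240 kb with a peak, SEPTIN9 had the most, and their median was 2.

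The SEPTIN9 peaks were split at 20 RIP fragments, and none had a number between 11 and 79. The 5 peaks with 20 or more RIP fragments had 79 to 239 fragments over backgrounds of 38.3 to 179, folds of 1.26 to 2.03 and widths of 509 to 946 bp. The other 8 had 2 to 11 fragments over backgrounds of 0.621 to 2.04, folds of 1.70 to 4.80 and widths of 315 to 421 bp. The ranges of width did not overlap between the sets, while those of fold did. Over the list, intron peaks had a median of 3 fragments and a median width of 315 bp. For 3′ UTR peaks these medians were 43 fragments and 404 bp, so a smaller width with few fragments is not particular to SEPTIN9. Among the 8 peaks with few fragments the fold was 1.79 at each of the 2 summits with 2 fragments and 4.80 at the summit with 11. Over the whole list, the peak caller's −log10 p was at least 1.30 for every peak, and at a given p fewer fragments need a higher fold. The lowest fold was 1.70 for 3 fragments and 1.15 for 60 or more. Folds of peaks with few and with many fragments thus do not share the same lower bound.

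**Figure D1:**
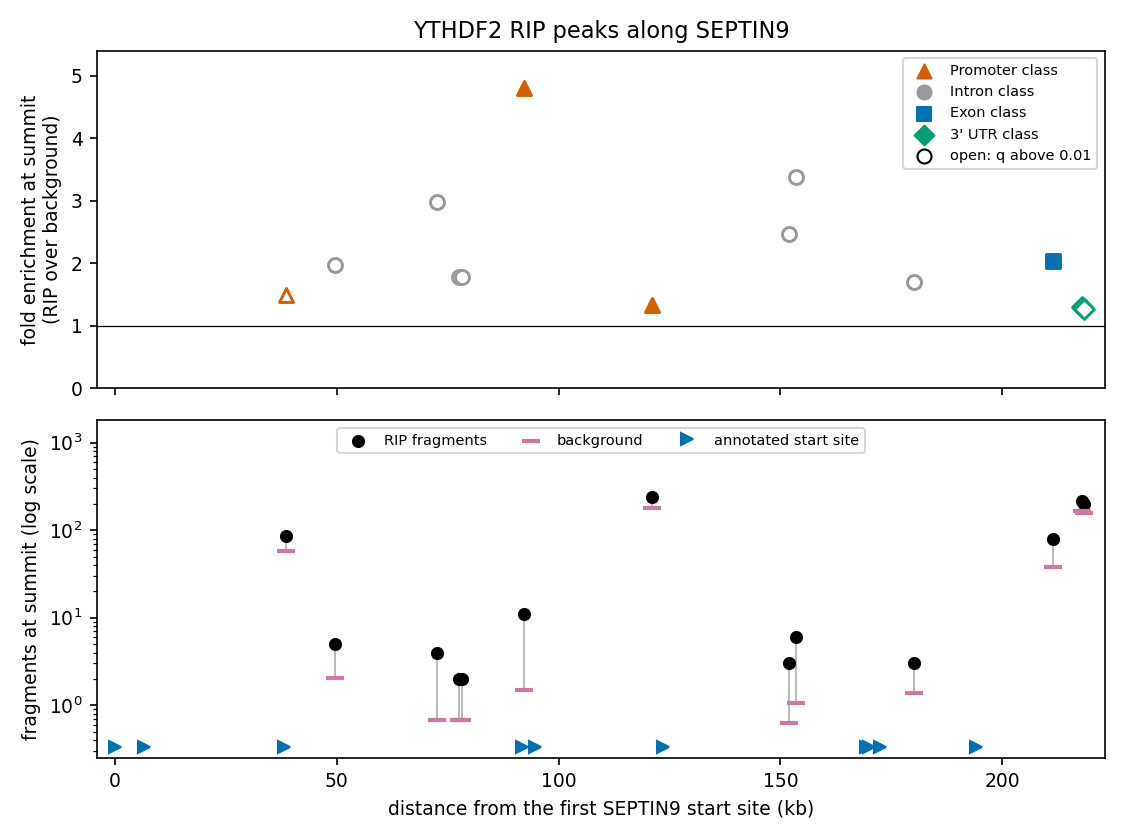
Peaks of SEPTIN9 by distance in kb from its first start site. The upper panel gives the fold at each summit by class, filled where the q was 0.01 or less, and the lower panel gives the RIP fragments and the background at the same summits on a log axis, with annotated start sites as arrowheads. The highest fold, 4.80, stands at 92.2 kb over 11 fragments, while the peaks with 79 or more fragments lie at 38.6 and 121 kb and in the last 10 kb, at folds of 2.03 or less.

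The peak of highest fold in any septin lay at chr17:77373409-77373740, in the promoter class and 72 bp downstream of the SEPTIN9 start at 77373337. It had 11 fragments (95% interval 5.49 to 19.7) over a background of 1.50, which gave 4.80-fold with a −log10 q of 4.15. Of the 2548 promoter-class peaks, 4.28% had a fold as high or higher. Its background was below the 38.3 to 179 of the SEPTIN9 peaks with many fragments and within the range of the gene's intron peaks.

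The SEPTIN9 peak with the most fragments lay at chr17:77402343-77402925, which the list classes as a promoter peak because it lies at -2152 bp from a further start. Its summit lies between peaks annotated to introns 2 and 3 of the annotated transcript. It had 239 fragments (95% interval 210 to 271) over a background of 179, which gave 1.33-fold with a −log10 q of 2.21. Only 2.51% of promoter-class peaks had a fold as low or lower. The third promoter-class peak of the gene, at chr17:77320085-77320593 and 570 bp downstream of a start in the list, had 87 fragments over 57.8. Its fold was 1.50 and it did not pass (−log10 q of 1.21). Of all promoter-class peaks, 56.6% passed, and 2 of the 3 in SEPTIN9 did.

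The coding end of SEPTIN9 carried its peak of lowest q. This peak, in exon 9 of 12 at chr17:77492708-77493360, had 79 fragments (95% interval 62.5 to 98.5) over a background of 38.3, and stood at 2.03-fold with a −log10 q of 5.41. It passed, as did 45.5% of all exon peaks. Downstream of it, both 3′ UTR peaks of SEPTIN9 had many more fragments and lower folds. The one at chr17:77499088-77499647 had 217 fragments over 167 (1.30-fold, −log10 q of 1.41), and the one at chr17:77499811-77500756 had 197 over 156 (1.26-fold, −log10 q of 0.630). Neither passed, against 50.9% of all 3′ UTR peaks that did. They lay 163 bp apart, and the last of them ran 160 bp past the annotated gene end. Of 4099 3′ UTR peaks, 1.02% had 217 or more fragments, and 2.90% had a fold of 1.30 or lower.

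The 7 intron peaks of SEPTIN9 rested on 2 to 6 fragments and none passed, against 7.26% of all intron peaks. In intron 2 of 11, 4 peaks had folds of 1.97 (5 fragments), 2.98 (4 fragments), and 1.79 for a pair of 2 fragments each. The 2.98-fold peak and the pair had a background of 0.68, a value shared by 1715 peaks of the list. In intron 3 of 11, 3 peaks had folds of 2.47 (3 fragments), 3.38 (6 fragments) and 1.70 (3 fragments). The highest, 3.38 at chr17:77434876-77435276, had a −log10 q of 1.22 and a counting interval of 2.20 to 13.1 fragments over a background of 1.07. Its summit and that of the 2.47-fold peak also lay inside LOC112268199, a long non-coding RNA gene, and without strand the genes cannot be told apart there.

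SEPTIN7, the member that every rod needs and that has no close paralog in its group, spans 115 kb of chromosome 7 (35800986 to 35915763, plus strand). Its 3′ UTR peak at chr7:35904706-35905401 had the highest −log10 q of all septin peaks, 9.03. It had 51 fragments (95% interval 38.0 to 67.1) over a background of 15.6, for a fold of 3.13. Among 3′ UTR peaks 14.4% had a fold as high or higher, and among the 2364 peaks of a like fragment number (within 1.5 times) the median fold was 2.02. The summit lay 10.6 kb before the end of the gene in the RefSeq table, at 90.8% of its length. The gene's other peaks had few fragments. One in intron 2 of 12 (chr7:35838563-35838923) had 5 fragments over 0.533, at 3.91-fold with a −log10 q of 1.92. That background was the commonest of the list, shared by 2573 peaks. One in the promoter class, 2.05 kb downstream of a start, had 3 fragments over 0.707, at 2.34-fold with a −log10 q of 0. Its bounds are chr7:35803269-35803583. Ranked by fold, the intron peak leads SEPTIN7, and ranked by q, the 3′ UTR peak does.

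Of the SEPTIN6 group, whose members fill the same place in the rod, SEPTIN11 had a passing peak, SEPTIN10 had one that did not pass, and SEPTIN6 and SEPTIN8 had none. The SEPTIN11 peak lay in the 3′ UTR at chr4:77036784-77037143, 3.24 kb before the gene end. It had 81 fragments (95% interval 64.3 to 101) over a background of 41.5, at 1.93-fold with a −log10 q of 4.67. Its fold was near the median of 1.89 over 2612 peaks of a like fragment number. The SEPTIN10 peak, in the 3′ UTR at chr2:109544040-109544415 on the minus strand, had 42 fragments (95% interval 30.3 to 56.8) over 32.0. Its fold was 1.30, its −log10 q was 0, and 3.10% of 3′ UTR peaks had a fold as low or lower. The RefSeq span of RANBP2 also holds this summit. SEPTIN6 (chromosome X, 119615724 to 119693168) and SEPTIN8 (chromosome 5, 132750819 to 132780083) lay 26.2 kb and 96.8 kb from the nearest summit of the list, and the list gives no level for them.

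SEPTIN2, whose group stands at the ends or centre of the rods and which binds myosin at the contractile ring, had peaks with many fragments and low folds. In exon 8 of 14 (chr2:241337709-241338044) it had 63 fragments (95% interval 48.4 to 80.6) over a background of 43.5, at 1.44-fold with a −log10 q of 0.180. At its 3′ end (chr2:241353400-241354130) it had 99 fragments (95% interval 80.5 to 121) over 76.1, at 1.30-fold with a −log10 q of 0. The summit of the latter lay 601 bp before the end of SEPTIN2, while the list classes it as a promoter peak of FARP2, a neighbouring gene from whose start the peak lies at -2155 bp. Neither SEPTIN2 peak passed.

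**Figure D2:**
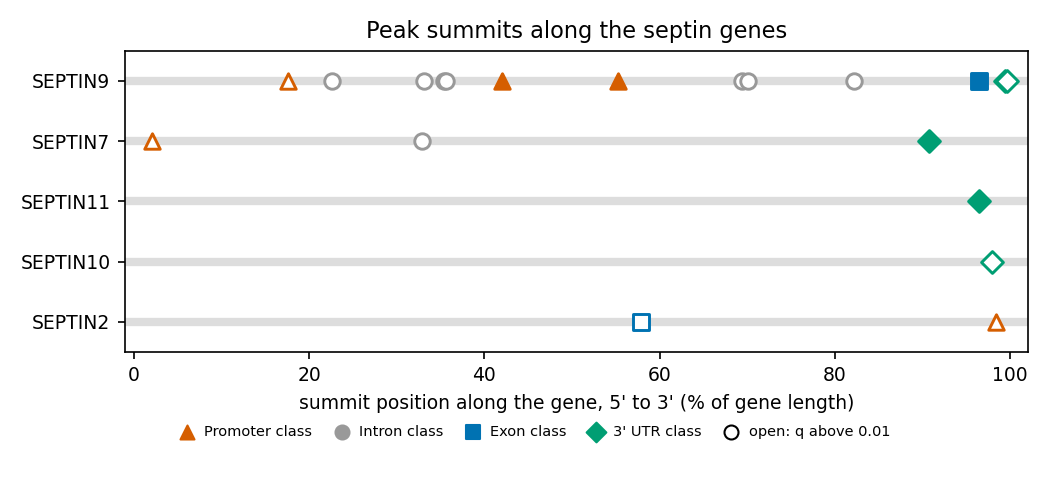
Summits of the 20 septin peaks by position along the gene, in % of gene length from 5′ to 3′, for the 5 genes with a peak, with symbols by class and filled where the q was 0.01 or less. Each gene has a summit past 90% of its length, while summits in the first 85% are those of SEPTIN9, SEPTIN7 and the exon 8 peak of SEPTIN2. The same count over all genes was not made.

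Each of the 5 genes had a summit past 90% of its length, at 90.8% in SEPTIN7, 96.4% in SEPTIN11, 97.9% in SEPTIN10, 98.4% in SEPTIN2 and 96.5% to 99.7% in SEPTIN9. How many of all genes with a peak have such a summit was not counted, so this is no trait particular to septins. By class, 5 of the 20 septin peaks were 3′ UTR peaks (25.0%, against 27.6% of all peaks), 8 were intron peaks (40.0%, against 21.4%), 5 were promoter-class peaks (25.0%, against 17.1%) and 2 were exon peaks (10%, against 20.8%). Of the 8 intron peaks, 7 were of SEPTIN9. The promoter class includes the SEPTIN2 peak at 98.4% of its gene, classed by the start of FARP2. It also includes a SEPTIN9 peak at 55.2% of the gene. Of the 5 3′ UTR peaks 2 passed, those of SEPTIN7 and SEPTIN11.

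The fragment numbers of septin summits ran from 2 to 239. The median per gene was 6 in SEPTIN9 and 5 in SEPTIN7, below the 12 of the whole list, and 42 to 81 in SEPTIN2, SEPTIN10 and SEPTIN11. Peaks with 20 or more fragments numbered 10 of 20, against 43.9% of all peaks, and those with 4 or fewer numbered 6, against 34.2%. Among the 10 with 20 or more fragments the median fold was 1.38, against 2.001 over the 6521 such peaks of the list. A fold under 1.5 was found in 7 of these 10, against 16.1% of the 6521. The 7 were both SEPTIN2 peaks, the SEPTIN10 peak and 4 SEPTIN9 peaks, and SEPTIN7 alone had a fold above 3 there. Of the 10 peaks 4 passed, against 68.5% of the 6521.

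**Figure D3:**
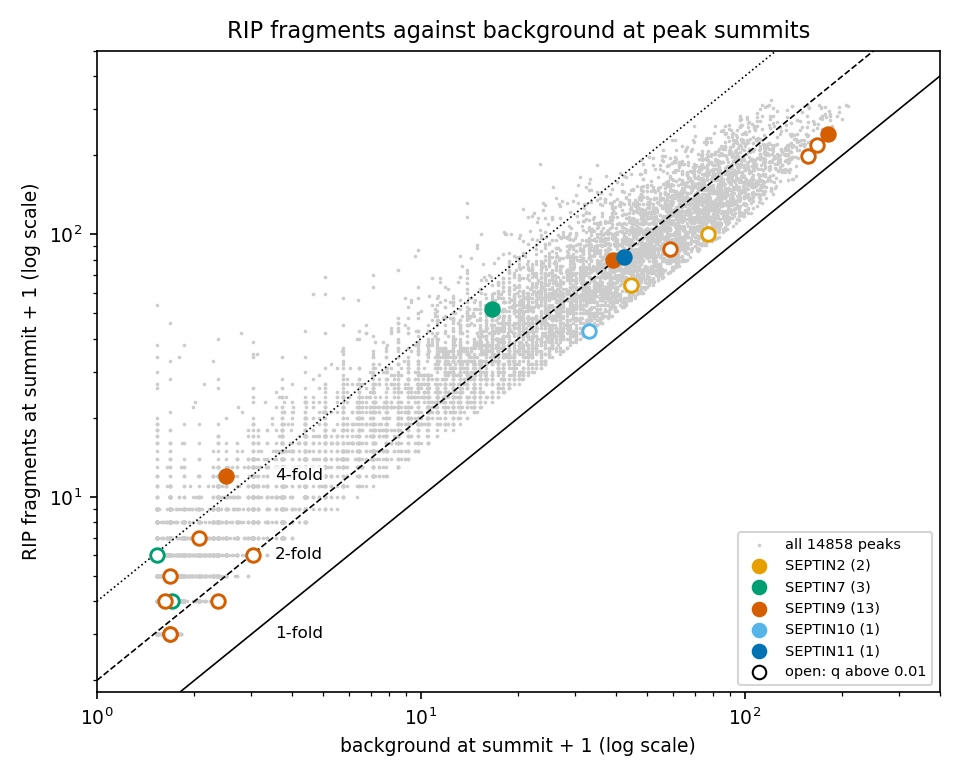
RIP fragments against background at each summit, both plus 1 and on log axes, for all 14858 peaks (grey) and the 20 septin peaks (coloured by gene, filled where the q was 0.01 or less), with lines at 1, 2 and 4-fold. The SEPTIN2 and SEPTIN10 peaks and 4 of the SEPTIN9 peaks with many fragments lie below the 2-fold line, at folds of 1.26 to 1.50. The SEPTIN11 peak lies just below that line at 1.93, while the 3′ UTR peak of SEPTIN7 lies above it at 3.13.

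Among all 13 human septin genes, the only further one with a peak was SEPTIN5, a septin known from vesicle release in neurons and platelets. That peak had 3 fragments, at 1.93-fold with a −log10 q of 0, and did not pass. SEPTIN1, SEPTIN3, SEPTIN4, SEPTIN12 and SEPTIN14 had none. By homology group, passing peaks were thus found in the SEPTIN6 group (SEPTIN11), in SEPTIN7 and in the group of SEPTIN9, and not in that of SEPTIN2. Within each group this rested on the gene named. Over the list 50.2% of genes with a peak had a passing one, so this is no pattern by group.

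Proteins that bind or steer septins were listed as 14 genes, of which 7 had a peak and 6 a passing one, against 50.2% of all genes with a peak. The share of all annotated genes that have a peak was not counted. In this and the other gene lists, the number of genes with a peak thus has no such share beside it. Of their 23 peaks 7 passed, against 37.3% of all peaks. Their best peaks by fold had a median of 45 fragments, against 17 over all genes with a peak. The kinetochore kinesin CENPE, a partner of SEPTIN7, had the highest passing fold (3.90 over 7 fragments). RHOA, the GTPase that builds the contractile ring, had 2.98 over 223 fragments, the non-muscle myosin heavy chain MYH9 2.18 over 139, and the adaptor CD2AP 2.13 over 45. The microtubule-binding protein MAP4 had 11 peaks, of which 1 passed. CDC42, whose effectors bind septins, passed at 1.51-fold, and none of these effectors, CDC42EP1 to CDC42EP5, had a peak. Neither had ANLN, which recruits septins to the furrow, nor ARHGEF18. MYH10 had a peak that did not pass.

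Of 20 genes of cytokinesis, the process septins are best known for, 15 had a peak and 13 a passing one, against 50.2% of all genes with a peak. Of their 21 peaks 15 passed, against 37.3% of all peaks. The best peaks by fold of these genes had a median of 58 fragments, against 17 over all genes with a peak. The highest passing folds were those of the microtubule-severing protein SPAST (5.02 over 8 fragments), the ESCRT component TSG101 (4.59 over 41), the midzone kinase AURKB (3.82 over 30) and the microtubule bundler PRC1 (2.68 over 47). The median best-peak fold of the 15 genes was 2.47, against 2.61 over all genes with a peak and 1.93 over the 6 septins with one. Over passing peaks alone the order was another, with a median best fold of 2.47 in the 13 cytokinesis genes, 2.66 over all genes and 3.13 in the 3 septins.

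Other cytoskeletal and membrane-binding families were set beside the septins by count. Of 10 filamins and actin crosslinkers 6 had a peak and 5 a passing one, with the highest passing folds in PLS3 (2.71), ACTN4 (2.43), FLNA (2.19) and SPTBN1 (1.72). Of 12 tubulins 6 had a peak and 5 a passing one, led by TUBG1 (4.48), TUBA1C (2.09), TUBA1B (1.86) and TUBB3 (1.59). Of 12 annexins 8 had a peak and 6 a passing one, led by ANXA1 (4.68), ANXA11 (4.56), ANXA2 (3.83) and ANXA7 (3.28). Of the 13 septins these counts were 6 and 3. Of all genes with a peak, 50.2% had a passing one. The median fragment number of best peaks by fold was 36 in the filamin list, 130.5 in tubulins, 91 in annexins and 26.5 in septins. Over all genes with a peak it was 17. Among the listed genes with 10 or more peaks, 8 of 10 passed in FLNA, 3 of 13 in SEPTIN9 and 1 of 11 in MAP4, against 37.3% of all peaks. In SEPTIN9, 7 of the 13 were intron peaks, a class in which 7.26% passed over the list. Whether the septins differ from these families was not tested, since the members were chosen with these values known. Tubulin genes are similar in sequence, so reads can be shared between them.

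**Figure D4:**
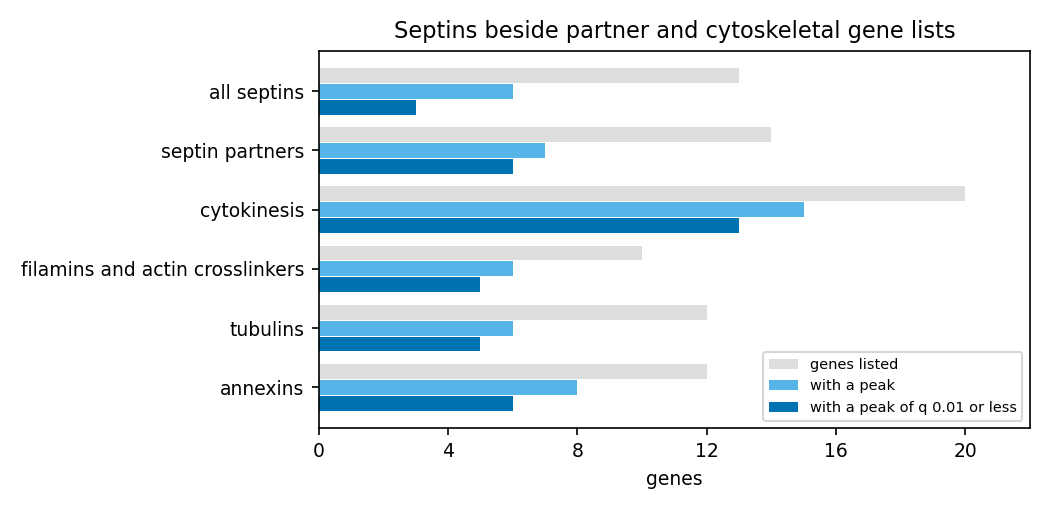
Number of genes listed, with a peak, and with a peak of q 0.01 or less, for the 13 septins and 5 other gene lists (horizontal bars from 0). Of the septins 6 had a peak and 3 a passing one, against 15 and 13 of the 20 cytokinesis genes, and 50.2% of all genes with a peak had a passing one. The share of all annotated genes that have a peak was not counted.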

How the data were processed

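RNA from 2 YTHDF2 RIP and 2 input libraries of HCCLM3 cells was sequenced after a bead-based RIP kit and a stranded low-input total RNA kit, per the labels' protocols. HISAT2, MACS2 and hg38 are named in the submitters' processing notes, without versions or options. No source used here states how libraries were combined or whether replicates were separate cultures. The authors' deposited list gives each peak's fold, the ratio of RIP over background, per the file headers. It also gives −log10 p and −log10 q, per the file headers, and a score, deposited by the authors, always 10 times the −log10 p with decimals dropped, which was left aside.

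Gene names came from a RefSeq table (GRCh38.p14), with protein-coding genes first where several spans held a summit. Peaks on alternative contigs outside exons and introns were given no gene. Fragments k and background b were solved from fold = (k + 1) / (b + 1) and the Poisson p of more than k, meeting every −log10 p within 0.000189. On 2000 simulated peaks k was recovered in 100% of cases. Those peaks were made with the same formulas, so this checks the arithmetic and not how the peak caller counted. Sequencing depth is unknown.

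The members and gene lists were chosen with earlier results of these data known. Named by rule were the passing peaks of members, the highest-fold peak of members with none, and up to 4 genes of highest passing fold in each other list. Further septin peaks and genes were named after their values were seen. A planned comparison of septin proteins was not run. Alternatives covered q, fold and fragment limits, gene assignment, chromosomes and peak class. Python 3.11.15, pandas 2.3.3, numpy 2.4.6, scipy 1.17.1 and matplotlib 3.10.9 were used.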

Additional observations from a re-analysis of the deposited data

How the results depend on the processing

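All 20 septin peaks lie on main chromosomes, and assigning every peak by gene span changed none of the counts. The count of 5 passing peaks was 7 at a q of 0.05 or less and 2 with a −log10 q of 5 or more. It was 3 with exon and UTR peaks only, 3 at a fold of at least 2, 4 with the deposited gene, 4 with 20 or more fragments, and 2 without SEPTIN9. Leaving out SEPTIN9 was chosen after seeing the data. The count of 3 genes was 2 with a −log10 q of 5 or more, at a fold of at least 2, without SEPTIN9, and with the deposited gene, which names FARP2 for both SEPTIN2 peaks and CCNI for the SEPTIN11 peak. The median fold of 1.86 was 2.58 over the 2 peaks with a −log10 q of at least 5, 3.05 at a fold of at least 2 and 2.03 over passing peaks. It was 1.97 with the deposited gene, 1.44 with exon and UTR peaks only, 1.38 with 20 or more fragments and 1.93 without SEPTIN9. The 3′ UTR count of 5 was 1 with a −log10 q of 5 or more, 1 at a fold of at least 2, 2 among passing peaks, 4 with the deposited gene and 3 without SEPTIN9. Apart from the q of 0.05 and the deposited gene, these settings keep fewer peaks by construction. With the deposited gene, which is another assignment of the full list, septin peaks numbered 17 in place of 20. With the best peak chosen by q, the fold was 2.03 in place of 4.80 for SEPTIN9 and 3.13 in place of 3.91 for SEPTIN7. No paired analysis was possible because the list holds no value per library, and leaving out a replicate was not possible for the same reason.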

Other observations

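The gene table holds 40 septin pseudogenes, 15 of them named after SEPTIN7, and summits of 6 peaks lay in 5 of these. None passed. They were SEPTIN7P14, with intron peaks of 3.09-fold over 5 fragments and 2.61-fold over 3, SEPTIN7P2 (2.61-fold over 3), SEPTIN14P1 (2.44-fold over 3), SEPTIN14P2 (1.70-fold over 3) and SEPTIN10P1 (2.96-fold over 8). By the rule used here, the SEPTIN14P2 peak was given to LINC01881 and the SEPTIN10P1 peak to PENK-AS1. No source used here tells how reads shared between SEPTIN7 and its copies were counted, so the SEPTIN7 values are uncertain to that extent.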
